A study of Mus musculus with 6 samples.

Results

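Transcript levels of the Notch pathway were examined in germinal center (GC) B cells and in resting (naive) B cells from the Peyer's patches of mice, the lymphoid follicles of the small intestine. The members were the genes for 2 receptors (Notch1 and Notch2), 2 Fringe glycosyltransferases (Lfng and Mfng), 3 proteins of the nuclear complex (Rbpj, Maml1 and Maml2), and Dtx1 and Hes1. They were taken by gene symbol and make up 9 of the 39179 genes in the expression table. RNA-Seq was performed on 3 GC and 3 naive samples, each a pool of wild-type female C57BL/6 mice aged 12 weeks. Cells came from the ileum, and GC B cells had been gated as Fas+ GL7+ B cells and naive B cells as Fas- GL7- B cells. The naive gate is defined only by the absence of 2 GC markers, so it may hold several kinds of B cell, and neither population was divided further. The comparison asks how the pathway's transcripts differ between B cells inside and outside the GC reaction.

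Notch receptors are surface proteins that are activated by Delta-like or Jagged ligands on a neighboring cell. Ligand binding lets ADAM10 and then the gamma-secretase complex cut the receptor, and the released intracellular domain enters the nucleus, where it joins the DNA-binding protein RBPJ and a Mastermind-like (MAML) coactivator to switch on targets such as Hes1. Fringe enzymes add sugars to the receptor's extracellular domain and so change which ligands it responds to. In spleen, NOTCH2 signaling in B cells is known for its requirement in the development of marginal zone B cells.

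The sorted populations carried the marker transcripts of their labels. Levels are given as TPM, a transcript's share of all transcripts in a pool after correction for its length, so that genes can be compared with each other. The 6 GC markers examined summed to between 1410 and 1438 TPM in the GC pools and to between 51.6 and 57.5 TPM in the naive pools, and Fas, which was used in the sort, was at 114 ± 5.55 and 3.22 ± 0.314 TPM (SD, n = 3 pools each). The 5 naive B cell markers with a value summed to 109 to 120 TPM in GC pools and 1543 to 1643 TPM in naive pools. Depth, estimated from the smallest steps between low values, was about 9900000 to 11000000 reads in the GC pools and 9700000 to 16200000 reads in the naive pools. It is approximate, because only 67.9% to 73.4% of the values used lay within 0.15 of a whole read. Whole multiples of a depth fit as well, and a value near the lowest good fit was taken.

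All 9 members had at least 1 TPM in all 6 pools, and 8 of them were lower in GC B cells (limma on log2(TPM + 1), Benjamini-Hochberg adjusted p under 0.05). None was higher, and the remaining member, Rbpj, did not pass the test. Lfng and Notch2 fell most, and Maml1 and Maml2 fell least among the members that passed. The lower calls have to be read against all 12785 genes tested, of which 65.6% differed between the populations, 30.1% being lower and 35.5% higher in GC B cells. In each of the 9 members the highest GC pool lay below the lowest naive pool, a separation seen in the same direction for 32.8% of the genes tested. The median log2 fold change, GC minus naive, was -1.03 over the members and 0.031 over all genes tested. In 6 members (Notch1, Notch2, Lfng, Mfng, Dtx1 and Hes1) the fall was at least 1 log2 unit, as it was for 11.2% of the genes tested. These are bulk RNA levels, so fewer cells expressing a gene and less RNA per cell cannot be told apart.

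**Figure D1:**
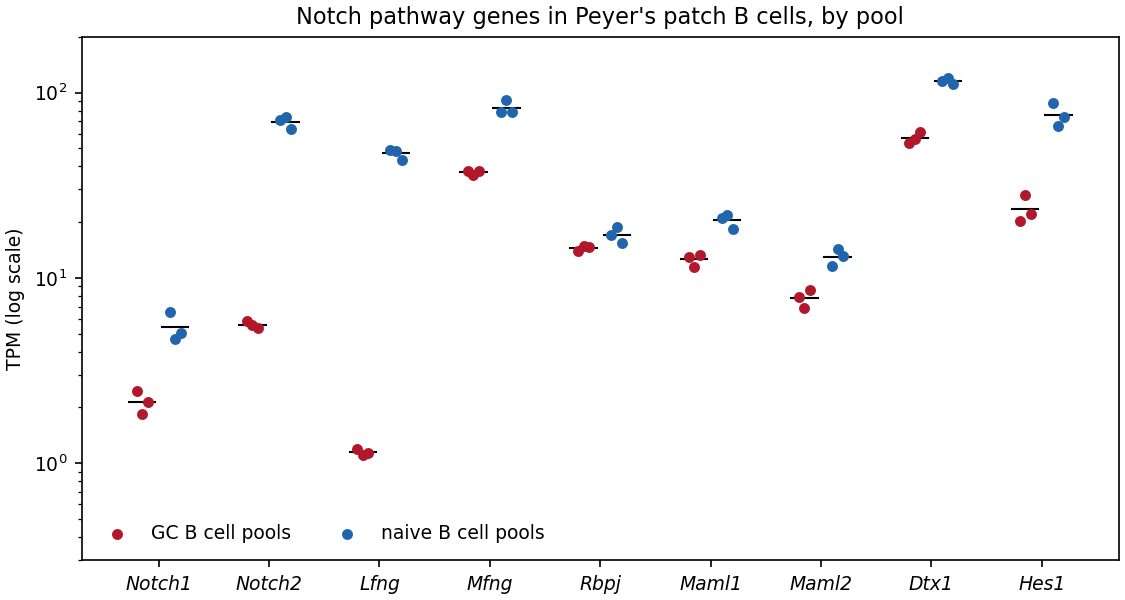
TPM of the 9 members in each of the 3 GC and 3 naive pools, on a log axis, with 1 point per pool and a bar at the mean. For every gene the 3 GC pools lie below the 3 naive pools, with the widest gap for Lfng (1.15 against 47.0 TPM) and the narrowest for Rbpj (14.5 against 17.1 TPM).

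The DNA next to the start sites of Lfng and of both receptors is shown because Lfng and Notch2 fell most of the members, with Notch1 beside its paralog for comparison. Each line gives the 250 bases before a RefSeq start site (GRCm38.p6), 5′ to 3′ on the gene's strand, with capitals marking TGGGAA, the core of the RBPJ binding site, or its reverse complement TTCCCA. The windows are chr5:140607091-140607340 (plus strand) for Lfng, chr3:98013288-98013537 (plus strand) for Notch2 and chr2:26503823-26504072 (minus strand) for Notch1.
Lfng: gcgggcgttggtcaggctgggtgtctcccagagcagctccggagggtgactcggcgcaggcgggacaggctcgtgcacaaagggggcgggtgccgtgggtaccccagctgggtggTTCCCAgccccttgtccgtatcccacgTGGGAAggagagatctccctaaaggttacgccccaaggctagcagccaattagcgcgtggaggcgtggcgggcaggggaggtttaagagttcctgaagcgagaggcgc
Notch2: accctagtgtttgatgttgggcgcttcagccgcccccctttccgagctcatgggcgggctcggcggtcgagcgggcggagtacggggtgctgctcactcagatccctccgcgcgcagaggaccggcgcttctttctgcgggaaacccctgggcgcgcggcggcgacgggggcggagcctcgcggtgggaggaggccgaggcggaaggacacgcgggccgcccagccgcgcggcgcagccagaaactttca
Notch1: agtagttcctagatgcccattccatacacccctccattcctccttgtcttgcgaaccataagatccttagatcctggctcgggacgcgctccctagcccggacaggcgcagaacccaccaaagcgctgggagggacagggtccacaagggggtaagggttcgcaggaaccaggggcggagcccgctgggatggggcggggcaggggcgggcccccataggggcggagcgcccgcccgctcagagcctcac

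The Lfng window held TTCCCA at 135 bases and TGGGAA at 108 bases before the start site, and the latter overlapped the letters CACGTG, an E box, at 112 bases. Neither receptor window held the 6 letters on either strand. RefSeq windows that also included the 50 bases after the start were found for 7 of the 9 members, which had 9 windows. TGGGAA lay on either strand in 4 of these windows, those of Lfng and Rbpj and 1 of Maml2. The 2 windows of Rbpj overlap. By comparison, 25.6% of 32851 mouse windows of the same 300 bases held TGGGAA. The N box CACNAG, the motif named for HES repressors, lay in windows of Notch1, Notch2, Lfng, Maml2 and Dtx1. It was found in 42.5% of all windows. The E box CACGTG lay in that of Lfng alone among the members and was found in 7.15% of all windows. A letter match in such a window is a description of the sequence and no binding was measured.

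Of the receptors, Notch2 (ENSMUSG00000027878; chromosome 3, 98013538 to 98150367, GRCm38.p6) was a weak transcript in GC B cells and an abundant one in naive B cells. Its level was 5.84, 5.54 and 5.38 TPM in GC replicates 1 to 3 and 71.4, 73.9 and 63.9 TPM in naive replicates 1 to 3. The naive mean was 12.5-fold the GC mean, and the log2 fold change was -3.42 (SE 0.08, 95% interval -3.62 to -3.23, adjusted p = 3.71e-07, limma). Only 1.37% of the genes tested were lower by 3 log2 units or more, and Notch2 and Lfng were both among them. Notch1 (ENSMUSG00000026923; chromosome 2, 26457902 to 26503822) was a weak transcript in both populations, at 2.47, 1.85 and 2.13 TPM in the GC pools against 6.57, 4.68 and 5.07 TPM in the naive ones. The pools did not overlap, and its log2 fold change was -1.03 (SE 0.15, 95% interval -1.40 to -0.65, adjusted p = 0.00123, limma).

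The makeup of the receptor transcripts was also compared, as a share within each pool. Notch2 made up 70.3%, 74.9% and 71.6% of the summed Notch1 and Notch2 TPM in the GC pools and 91.6%, 94.0% and 92.6% in the naive pools. The difference of 20.5 percentage points separated all GC from all naive pools, with p = 0.1 in a two-sided exact permutation test, the smallest value that 3 against 3 pools allow. Notch4, a receptor best known from endothelium, was also lower in GC B cells, at 0.868, 0.817 and 1.51 TPM against 4.70, 2.98 and 4.26 TPM (log2 fold change -1.27, SE 0.20, adjusted p = 0.00161, limma). The 4 endothelial markers summed to 22.6 to 24.4 TPM in GC and 122 to 132 TPM in naive pools, almost all of it Pecam1, with Cdh5 and Tek under 1 TPM on average in both populations and Kdr listed at 0 in every pool. Notch3 was listed at 0 in every pool. Summed over Notch1, Notch2 and Notch4, receptor transcripts were at 8.80 ± 0.520 TPM in GC against 79.2 ± 5.18 TPM in naive B cells (SD, n = 3 pools each).

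The Fringe transcripts differed in the size of their change. Lfng (Lunatic fringe, ENSMUSG00000029570; chromosome 5, 140607341 to 140615545) had the largest fall of the 9 members and ranked 50 of 12785 genes from the most reduced. Its GC pools held 1.2, 1.11 and 1.13 TPM and its naive pools 49.0, 48.6 and 43.5 TPM, so that the naive mean was 41.1-fold the GC mean. Its log2 fold change was -4.48 (SE 0.09, 95% interval -4.70 to -4.27, adjusted p = 2.41e-07, limma), a value that the added pseudocount of 1 makes smaller. The GC level rests on few fragments, with an estimated 8.0 per kilobase of transcript in the lowest pool. Mfng (Manic fringe, ENSMUSG00000018169; chromosome 15, 78755882 to 78773516) remained well above 30 TPM in GC B cells, at 37.8, 36.0 and 37.9 TPM against 78.6, 91.5 and 78.1 TPM in naive B cells. Its log2 fold change was -1.13 (SE 0.08, 95% interval -1.31 to -0.95, adjusted p = 2.8e-05, limma).

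Rfng, the remaining Fringe gene of the mouse, did not pass the test. It was at 19.5, 16.3 and 16.6 TPM in GC and 18.5, 23.9 and 20.1 TPM in naive pools, which overlap (log2 fold change -0.24, 95% interval -0.53 to 0.047, adjusted p = 0.119, limma). Lfng therefore made up 2.05%, 2.07% and 2.03% of the summed Fringe TPM in the GC pools and 33.5%, 29.6% and 30.7% in the naive pools. This difference of 29.2 percentage points again had p = 0.1, the smallest value possible, in the exact permutation test. Mfng was the largest Fringe transcript in all 6 pools, at 64.6% to 68.2% of the sum in GC and 53.8% to 55.8% in naive B cells. The Fringe sum was 55.8 ± 2.56 TPM in GC against 150.7 ± 11.8 TPM in naive B cells (SD, n = 3 pools each).

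**Figure D2:**
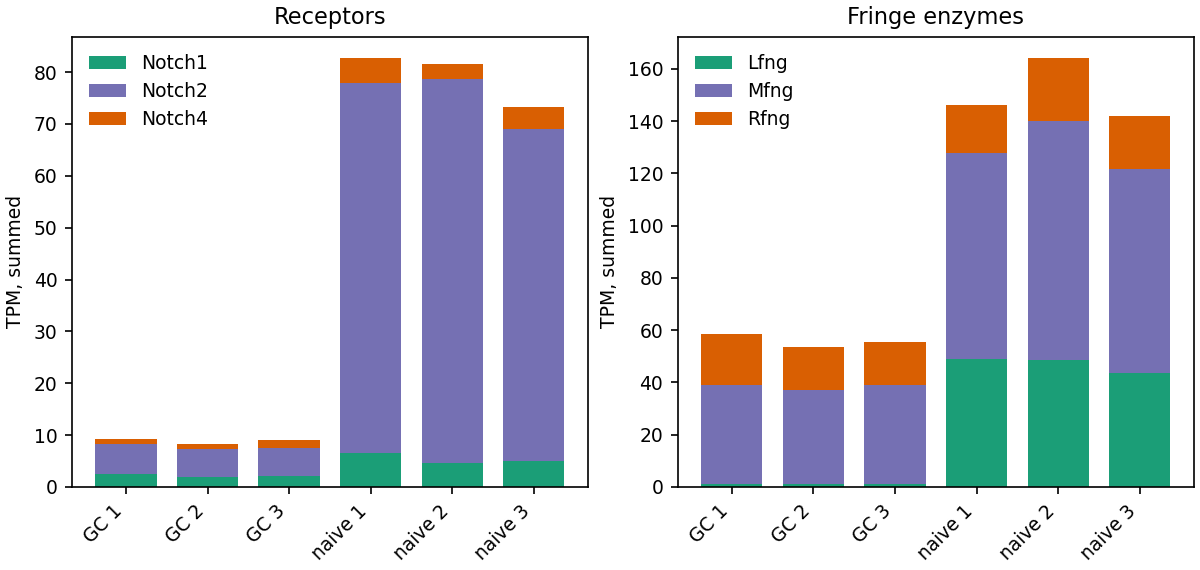
Stacked bars of TPM per pool for the Notch receptor transcripts and the Fringe transcripts, for 3 GC and 3 naive pools, with the axis starting at 0. Notch2 forms most of the receptor bar in every GC and naive pool. Lfng, at 29.6% to 33.5% of the naive Fringe bars, is barely visible in the GC pools (2.03% to 2.07%).

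Members of the nuclear complex had the smallest fold changes. RBPJ is the DNA-binding protein through which all Notch receptors act. Its gene (Rbpj, ENSMUSG00000039191; chromosome 5, 53555779 to 53657445) had 14.0, 14.9 and 14.6 TPM in GC pools against 17.1, 18.9 and 15.4 TPM in naive pools. The pools did not overlap, but the log2 fold change of -0.22 (SE 0.09, 95% interval -0.44 to 0.0047) had an adjusted p of 0.0776 by limma. This call depended on the scaling: adjusted p was 0.0106 after quantile normalization and 0.0163 after median-of-ratios scaling, where Rbpj counted as lower in GC B cells.

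The coactivators Maml1 and Maml2 were both lower in GC B cells. Maml1 (ENSMUSG00000050567; chromosome 11, 50255634 to 50293131) was at 13.0, 11.5 and 13.4 TPM in GC and 21.1, 21.9 and 18.3 TPM in naive pools, a log2 fold change of -0.65 (SE 0.10, 95% interval -0.89 to -0.41, adjusted p = 0.00133, limma). Maml2 (ENSMUSG00000031925; chromosome 9, 13296561 to 13709533) was at 7.90, 6.91 and 8.57 TPM in GC and 11.6, 14.2 and 13.1 TPM in naive pools, a log2 fold change of -0.67 (SE 0.12, 95% interval -0.95 to -0.39, adjusted p = 0.00249, limma). Neither gene's pools overlapped between the populations. The third family member, Maml3, was listed at 0, 0 and 0.167 TPM in GC pools and reached 2.92, 3.34 and 2.87 TPM in the naive pools (adjusted p = 3.89e-05, limma). It passed the filter on low values through the naive pools alone. Maml2's share of the summed MAML TPM was 38.0% ± 0.650 in GC and 35.6% ± 2.79 in naive B cells (SD, n = 3 pools each), and the pools overlapped (exact permutation p = 0.3).

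Dtx1 and Hes1, both known as targets of Notch signaling, fell by 1.0 and 1.66 on the log2 scale. Dtx1 encodes the ubiquitin ligase Deltex 1, which binds the receptor's intracellular domain (ENSMUSG00000029603; chromosome 5, 120680203 to 120711867). It was the most abundant member in both populations, at 53.2, 56.5 and 61.5 TPM in GC and 114.9, 119.3 and 111.4 TPM in naive pools (SE of the log2 fold change 0.07, 95% interval -1.16 to -0.84, adjusted p = 2.56e-05, limma). Hes1, a transcriptional repressor of the basic helix-loop-helix family (ENSMUSG00000022528; chromosome 16, 30065357 to 30067796), was at 20.4, 27.9 and 22 TPM in GC and 87.8, 66.0 and 74.1 TPM in naive pools. The pools of both genes were separate, and Hes1 had an SE of 0.15 and a 95% interval of -2.01 to -1.30 (adjusted p = 0.000108, limma). Hes1 was also the member with the widest spread within a population in absolute terms, 11.0 TPM (SD) in naive pools.

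Hes1 is also expressed in intestinal epithelium, so markers of that tissue were examined beside it. The 6 epithelial markers summed to 22.2 to 38.0 TPM in GC pools and 47.7 to 76.1 TPM in naive pools. Of the 5 that were tested, Krt8, Epcam and Vil1 were lower in GC B cells, beside 30.1% of all genes tested. Krt18 was higher, beside 35.5% of all genes tested, and Krt19 did not pass. Krt8, the most abundant of these markers, stood at 8.47, 14.3 and 13.0 TPM in GC pools and 29.2, 19.9 and 22.6 TPM in the naive pools. Krt8, Epcam and Vil1 placed the pools of each population in the same order as Hes1 does. Krt18 and Krt19 did not in the GC pools, nor did Krt18 and Cdh1 in the naive pools. The part of this epithelial signal in the Hes1 levels was not tested.

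**Figure D3:**
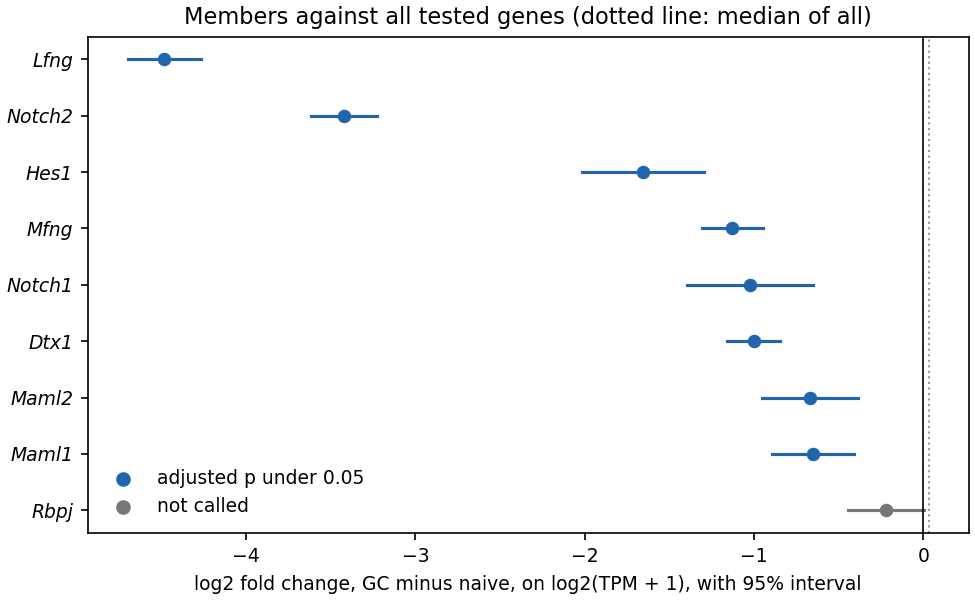
Log2 fold change, GC minus naive, of the 9 members on the log2(TPM + 1) scale, with 95% intervals from limma over 3 GC and 3 naive pools. Only the interval of Rbpj reaches 0, and those of Lfng (-4.70 to -4.27) and Notch2 (-3.62 to -3.23) lie apart from the rest.

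The order of the members by TPM differed between the populations. In GC B cells it ran from Dtx1 through Mfng, Hes1, Rbpj, Maml1, Maml2, Notch2 and Notch1 to Lfng, and the pools of no neighbors in that order overlapped. In naive B cells Dtx1 and Mfng again led, followed by Hes1, Notch2, Lfng, Maml1, Rbpj, Maml2 and Notch1. There the pools of Mfng and Hes1, of Hes1 and Notch2, and of Maml1 and Rbpj overlapped, so these neighbors cannot be ranked. Notch2 thus stood above Rbpj, Maml1 and Maml2 in every naive pool and below all of these in every GC pool. The genes whose levels over the 6 pools lay closest to those of Notch2, by Euclidean distance on the log2(TPM + 1) scale, were Plcb2 (distance 0.508), Slc17a9 (0.577) and Gm10052 (0.648). Plcb2, a phospholipase C, was at 6.26 ± 0.809 TPM in GC against 61.4 ± 2.64 TPM in naive B cells (SD, n = 3 pools each).

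The other genes of the pathway did not fall as a body. Of 54 further genes listed by their role, 44 passed the filter on low values, and of these 13 were lower and 11 higher in GC B cells while 20 did not pass the test. These are 24 calls beside 65.6% of all genes tested, and the median log2 fold change of the 44 was -0.064. Of the 44, Jag2 and Maml3 passed the filter through 1 population alone, and Notch4 and Dtx4 were under 1 TPM in some pools. The split moved with the scaling, to 8 higher and 15 lower after quantile normalization. By at least 1 log2 unit, 7 were lower and 3 were higher, beside 11.2% and 14.2% of all genes tested.

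**Figure D4:**
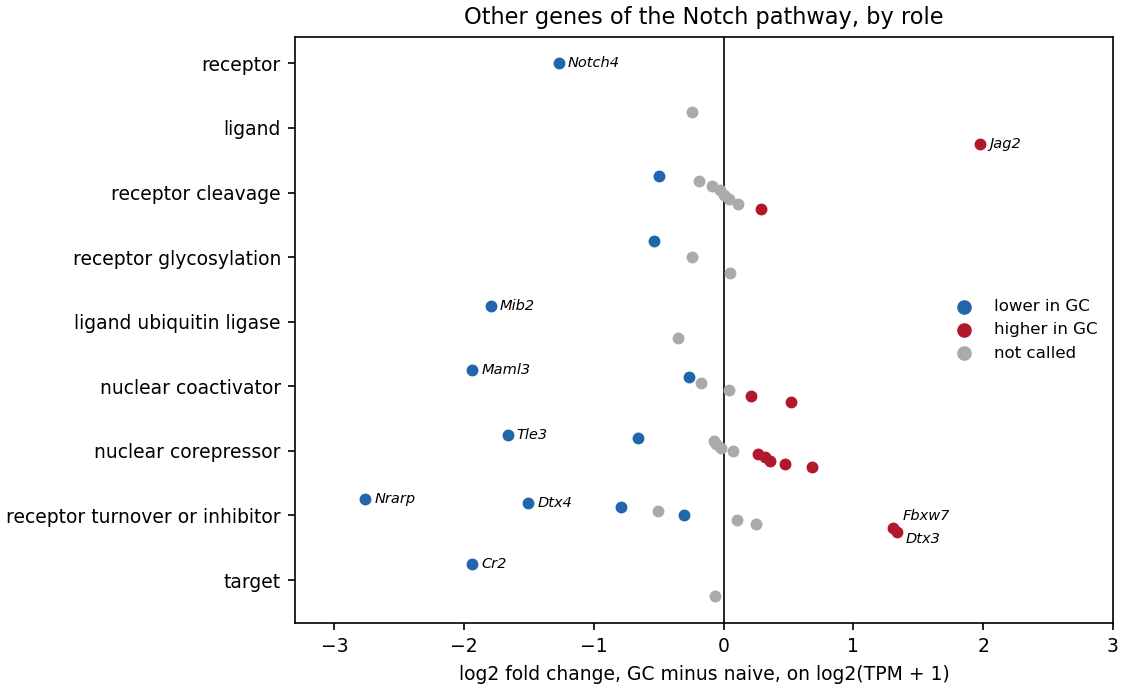
Log2 fold change, GC minus naive, of the 44 further pathway genes tested, by role, with 1 point per gene. Genes called at 1 log2 unit or more are named: 7 lie to the left, with Nrarp (-2.76) farthest on this scale, and 3 to the right, with Jag2 (1.98) farthest.

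Most ligand genes were barely detected, and Jag2 was the ligand gene that rose. It was at 4.24, 2.84 and 5.30 TPM in GC pools and at 0.270, 0.329 and 0.232 TPM in naive pools, a 14.9-fold higher mean (log2 fold change 1.98, SE 0.20, adjusted p = 0.000202, limma). It passed the filter through the GC pools alone. Dll1 was at 1.82, 3.94 and 3.08 TPM in GC and 3.66, 4.54 and 2.63 TPM in naive pools and did not pass (log2 fold change -0.24, 95% interval -0.86 to 0.38, adjusted p = 0.442, limma). Dll3, Dll4 and Jag1 were below the filter, at no more than 0.318, 0.137 and 0.111 TPM in any pool. Of the E3 ligases that act on ligands, Mib2 was lower in GC B cells, at 8.14 ± 1.25 against 30.6 ± 2.91 TPM (SD, n = 3 pools each; log2 fold change -1.80, adjusted p = 3.84e-05, limma), while Mib1 did not pass and Neurl1a was below the filter.

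Most genes of the receptor-cleaving machinery did not pass the test. Of 8 tested, Adam10 was higher, Ncstn was lower, and 6 did not pass, among them Furin, Adam17 and Psenen. Over all genes tested, 35.5% were called higher and 30.1% lower. Aph1b and Aph1c were below the filter. The Adam10 call was lost after correction for GC content and length, which also shifted log2 fold changes by a median of -0.12. There the log2 fold change of Adam10 went from 0.29 to 0.11 (adjusted p = 0.0775, limma). Psenen, a gamma-secretase subunit and the most abundant of them, was at 125.6 ± 11.3 TPM in GC against 143 ± 13.6 TPM in naive B cells (SD, n = 3 pools each; adjusted p = 0.126, limma), and it counted as lower after quantile normalization (adjusted p = 0.0331, limma) or that correction (0.0361). Of the enzymes that glycosylate the receptor besides the Fringes, Poglut1, which adds glucose, was lower in GC B cells at 16.3 ± 0.228 against 24.1 ± 0.302 TPM (SD, n = 3 pools each; log2 fold change -0.53, adjusted p = 0.000333, limma), and Pofut1, which adds the fucose that Fringes extend, did not pass.

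Nuclear cofactors that work with or against the RBPJ complex were called in both directions. So were all genes tested, of which 30.1% were lower and 35.5% higher in GC B cells. Among 6 coactivators, Maml3 and Kat2a were lower and Snw1 and Kat2b were higher. Maml3 passed the filter on low values through the naive pools alone. The call of Kat2b was lost in 11 of 16 alternatives, with adjusted p up to 0.106, and that of Kat2a in 2, with adjusted p up to 0.0583 (limma). Snw1, the most abundant, was at 66.4 ± 0.537 against 57.2 ± 1.56 TPM (SD, n = 3 pools each; log2 fold change 0.21, adjusted p = 0.00665, limma). Its log2 fold change turned to -0.00123 after correction for GC content and length, which shifted log2 fold changes by a median of -0.12. Among 11 corepressors, Spen, Hdac1, Hdac2, Ctbp1 and Tle4 were higher, Tle1 and Tle3 were lower, and 4 did not pass. The call of Hdac2 was lost in 8 of 16 alternatives, with adjusted p up to 0.601, and that of Tle4 in 4, with adjusted p up to 0.0829 (limma). The Groucho family gene Tle3 fell from 134.8, 133.3 and 119.7 TPM in naive pools to 39.7, 37.4 and 43.2 TPM in GC pools (log2 fold change -1.66, adjusted p = 4.95e-06, limma). Hdac1, a histone deacetylase, was the most abundant at 271.4 ± 10.3 TPM in GC against 194.7 ± 6.56 TPM in naive B cells (SD, n = 3 pools each; log2 fold change 0.48, adjusted p = 0.000174, limma).

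Genes of receptor turnover and inhibition were also called in both directions, beside 30.1% lower and 35.5% higher over all genes tested. Nrarp, a Notch-induced inhibitor that binds the RBPJ complex, was at 1.36, 2.06 and 1.23 TPM in GC and 17.0, 15.4 and 16.0 TPM in naive pools (log2 fold change -2.76, SE 0.15, adjusted p = 9.76e-06, limma). Fbxw7, the ubiquitin ligase subunit that marks the intracellular domain for degradation, was higher in GC B cells, at 30.2, 31.4 and 33.4 against 12.1, 12.9 and 11.6 TPM (log2 fold change 1.31, adjusted p = 1.47e-05, limma). The Deltex genes diverged. Dtx3 was higher in GC B cells, at 70.1, 70.4 and 65.5 against 24.0, 30.5 and 25.6 TPM (log2 fold change 1.34, adjusted p = 3.83e-05, limma). Dtx4 was lower, at 1.06, 1.05 and 0.920 against 4.44, 4.97 and 4.73 TPM (log2 fold change -1.51, adjusted p = 4.77e-05, limma). Dtx3l and the ligase gene Itch were also lower, though the Dtx3l call was lost without GC replicate 3, naive replicate 1 or naive replicate 2, with adjusted p up to 0.0552 (limma), and Dtx2, Numb and Numbl did not pass.

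Of the 5 remaining targets, only Cr2 and Hes5 could be tested, and Cr2 was lower while Hes5 did not pass. Nrarp, also induced by Notch, was lower as given above. Cr2, which encodes complement receptor 2 and is known as a NOTCH2 target in marginal zone B cells, was at 48.5, 51.0 and 43.4 TPM in GC and 191.2, 193.4 and 171.6 TPM in naive pools (log2 fold change -1.94, SE 0.08, adjusted p = 3.03e-06, limma). Hes5 overlapped between the populations, at 10.7, 11.7 and 11.0 against 11.7, 13.5 and 10.1 TPM (log2 fold change -0.065, 95% interval -0.35 to 0.22, adjusted p = 0.651, limma), and its sign turned to 0.031 without naive replicate 2. Hey1 reached at most 0.747 TPM, Heyl at most 0.50 TPM and Hey2 at most 0.0540 TPM in any pool.

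Most markers of marginal zone B cells examined were, like Notch2, lower in GC B cells. The 5 (Cr2, Cd1d1, Cd9, S1pr3 and Plac8) summed to 89.3 to 99.3 TPM in GC and 565.9 to 576.5 TPM in naive pools. The naive sum was mostly Plac8, at 309 ± 21.7 TPM, and Cr2, at 185 ± 12.0 TPM (SD, n = 3 pools). Of the 5, 4 were lower in GC B cells, beside 30.1% of all genes tested. Cd9 differed least of these, at 9.64 ± 1.15 against 14.8 ± 3.32 TPM (SD, n = 3 pools each). S1pr3 was higher, at 13.6 ± 1.05 against 3.94 ± 0.288 TPM (SD, n = 3 pools each). Cd1d1 was at 0.835 ± 0.244 TPM in GC against 58.2 ± 6.58 TPM in naive B cells (SD, n = 3 pools each). Cr2 counts in this list as well as among the targets. The part of such cells in the Notch2 difference was not tested. Of 5 T cell markers, Cd3e, Cd3g, Cd4 and Cd8a were under 1 TPM on average in both populations, and the sum, 129 to 140 TPM in GC and 65.8 to 69.2 TPM in naive pools, was almost entirely Lck. Myeloid markers summed to 2.29 to 2.56 TPM in GC and 4.37 to 7.21 TPM in naive pools, and stromal markers summed to under 1 TPM in every pool. Memory B cell markers summed to 68.2 to 72.9 and 207 to 230 TPM in GC and naive pools, and the naive sum was mostly Ccr6, at 198 ± 13.7 TPM (SD, n = 3 pools). Of the 5 memory markers, Ccr6 and Pdcd1lg2 were lower in GC B cells, Nt5e and Cd80 were higher and Zbtb32 did not pass. Nt5e was at 48.3 ± 3.36 against 0.419 ± 0.0467 TPM (SD, n = 3 pools each). Both Nt5e and Cd80 passed the filter on low values through the GC pools alone. Plasma cell markers summed to 131 to 135 TPM in GC and 192 to 212 TPM in naive pools, almost all of it Xbp1 and Irf4. Sdc1, Xbp1 and Irf4 were lower in GC B cells, while Prdm1 was higher, at 5.01 ± 0.280 against 0.955 ± 0.107 TPM (SD, n = 3 pools each). Sdc1 was weak in both populations, at 1.51 ± 0.527 against 3.19 ± 0.526 TPM (SD, n = 3 pools each), and the log2 fold change of Xbp1 was only -0.20. Beside these memory and plasma cell calls, 30.1% of all genes tested were lower and 35.5% higher in GC B cells.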

How the data were processed

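RNA-Seq values of 3 GC and 3 naive pools were used. The authors trimmed adapters with cutadapt 1.9, quantified reads with RSEM 1.2.25 on the mouse transcriptome (NCBIm38 v75) and deposited an FPKM value for each gene in each pool, with 2 decimals. The table used here holds no counts, so no count test was made. The sources do not say that the libraries keep strand, so antisense reads cannot be told apart.

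FPKM were divided by the pool total and multiplied by 1000000 to give TPM. Genes that reached 1 TPM in 3 or more pools were compared on log2(TPM + 1) with limma 3.58.1 in R 4.3.3 (lmFit, eBayes with a trend), GC minus naive, with Benjamini-Hochberg adjustment over all 12785 genes tested. The fit was tested on simulated data. Shares within a pool were compared with two-sided exact permutation tests. Each sample is a pool of mice, and p-values measure the spread between 3 pools per population. Python 3.11.15, numpy 2.4.6, pandas 2.3.3 and matplotlib 3.10.9 were used.

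Symbols matched all 9 members, all 54 further genes and 55 of 56 markers (Ighd had none). Positions and promoter windows are RefSeq's (GRCm38.p6). The members, lists, named-gene rule and alternatives were chosen with earlier results of these data known. Named were all members, further genes called at 1 log2 unit or more, all ligands, receptors and canonical targets, Rfng, Maml3, the most abundant gene of each role, and the 3 genes nearest to Notch2. Other genes named were chosen to account for a count. A gene of the wider list and a marker gene are not reported here. Alternatives covered pseudocount, filters, FPKM, scaling, the trend, the replicate block and left-out pools.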

Additional observations from a re-analysis of the deposited data

How the results depend on the processing

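The direction and call of the 8 members lower in GC B cells held under every alternative in which they were tested (pseudocount 0.1, no filter, a filter of 5 TPM, FPKM, quantile and median-of-ratios scaling, no trend, the replicate block, left-out pools, and the correction below). The filter of 5 TPM dropped Notch1, which leaves 7 of 8 members called. Rbpj was called lower with FPKM (adjusted p = 0.0197), after quantile (0.0106) or median-of-ratios scaling (0.0163), without naive replicate 3 (0.0275) and after correction for GC content and length (0.00179, and 0.00559 with the replicate block, all by limma). That correction was chosen after seeing the data. It moved the median of the genes by -0.12 log2 units, left 11031 genes and gave 7 higher and 18 lower calls in the wider list. Under it Snw1 turned to -0.00123, with and without the replicate block, relative to that shift. In the wider list, 31 results lost a call, all of Kat2b, Hdac2, Tle4, Dtx3l, Adam10, Kat2a or Snw1. Kat2b lost it without every pool but GC replicate 2, Hdac2 without GC replicate 1 or 3 or naive replicate 1 or 3, Tle4 without GC replicate 2 or 3, and Kat2a without naive replicate 2. With the replicate block, Kat2b (adjusted p = 0.0696), Kat2a (0.0525), Hdac2 (0.0567) and Tle4 (0.0658) were lost, and with quantile normalization Kat2b (0.0536), Hdac2 (0.0814) and Snw1 (0.108), all by limma. Over all genes the split was 4540 higher and 3852 lower, against 4080 and 4450 after quantile normalization. Leaving out a pool moved Hes5 between -0.16 and 0.031, called 8 or 9 members and gave 7656 to 8101 calls over all genes. GC and naive pools share replicate numbers in the labels. The deviations of same-numbered pools correlated at 0.0830, 0.0225 and 0.0456, and those of differently numbered pools at -0.0746 to 0.0298. Values this small cannot settle whether the pools are paired. The main fit assumed no pairing, and the replicate block was kept as an alternative. With the replicate block, 7960 genes, 8 members and 20 genes of the wider list (8 higher, 12 lower) were called, and the within-pool shares could not go below p = 0.25 in exact sign-flip tests. Low depth limits Lfng and Notch1 in GC B cells most, at 8.0 and 13.4 fragments per kilobase in their lowest pools.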
